A study of Mus musculus with 6 samples.

Results

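The 10 genes described here, F2, Depp1, Serpina3n, Reg3g, Aspa, Tff2, Bpifa1, Prss30, Adgrg1 and Dyrk4, are a named list out of 21938 protein-coding genes with windows in GENCODE M21. They were listed because an earlier look at these same files found their loci most open in a group of basal cells that had been called airway-like. Their level in such cells is therefore a description of how they were picked and carries no test below. The assay was single-cell ATAC-seq, in which a transposase cuts accessible DNA in nuclei and each fragment end marks 1 cut site. A level is given as cut sites per 1000000 cut sites of the same cells (CPM), either over the gene body with 2 kb upstream or within 1 kb of the 5′-most annotated start, here called the promoter.

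All 6 libraries came from mice carrying Krt5CreER with LSL-YFP on both copies of Rosa26, alleles in which the Krt5 promoter drives an inducible recombinase that switches on YFP in basal cells and in whatever they later give rise to. Uninjured mice (3 libraries) were controls, and injured mice (3 libraries) had received methimazole, a drug that destroys much of the olfactory epithelium, 24 h before. Replicate 1 was aged 8 weeks, replicate 2 was 6 weeks and replicate 3 was 6 to 7 weeks in both groups. YFP-positive cells that excluded propidium iodide were sorted from dissociated dorsal olfactory epithelium, so every group, controls included, carries the lineage label. The labels call the replicates biological and say that each animal was dissociated by itself, but not how many animals made up a library, and the p-values measure the spread between these libraries.

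Horizontal basal cells are the reserve stem cells of the olfactory epithelium and divide after injury. The neighbouring respiratory lining of the nose has its own basal and secretory cells, which release mucus and defence proteins. Of the genes described, Bpifa1 (a secreted airway protein also known as SPLUNC1), Reg3g (an antimicrobial lectin) and Tff2 (a trefoil peptide of mucous surfaces) encode mucosal products. F2 encodes prothrombin, Prss30 a serine protease and Serpina3n an inhibitor of serine proteases that rises in the acute phase. Adgrg1 encodes the adhesion receptor GPR56, Aspa the enzyme aspartoacylase, Depp1 a FOXO-regulated protein linked to autophagy and Dyrk4 a kinase.

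A total of 42 open regions lay in or within 10 kb of these genes, and 36 of them were more open in the most accessible cluster of cells, introduced below, than in all other cells. That cluster was picked by the levels of these genes, so the count describes the choice. In 10 regions the level in that cluster was at least 5 CPM and at least 4 times that outside it. The 300 bases with the most cut sites are printed for 6 regions whose levels are given below: the elements next to the starts of Bpifa1 and Reg3g, the upstream element of Serpina3n, the element inside Aspa, and the pair of Dyrk4 elements that open in different cells. Regions of F2, Tff2 and Prss30 with levels below are not printed. Sequences are from RefSeq's GRCm38 assembly, on each gene's own strand, and capitals mark matches to the AP-1 motif TGANTCA.
Bpifa1 (chr2:154142501-154142800, plus strand, between genes, upstream of the start): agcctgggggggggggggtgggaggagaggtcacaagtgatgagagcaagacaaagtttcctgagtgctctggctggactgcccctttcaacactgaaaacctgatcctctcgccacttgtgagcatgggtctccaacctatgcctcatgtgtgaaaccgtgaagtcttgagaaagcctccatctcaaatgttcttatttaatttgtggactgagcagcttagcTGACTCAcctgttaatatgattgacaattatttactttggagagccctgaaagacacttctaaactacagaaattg
Reg3g (chr6:78469401-78469700, minus strand, between genes, upstream of the start): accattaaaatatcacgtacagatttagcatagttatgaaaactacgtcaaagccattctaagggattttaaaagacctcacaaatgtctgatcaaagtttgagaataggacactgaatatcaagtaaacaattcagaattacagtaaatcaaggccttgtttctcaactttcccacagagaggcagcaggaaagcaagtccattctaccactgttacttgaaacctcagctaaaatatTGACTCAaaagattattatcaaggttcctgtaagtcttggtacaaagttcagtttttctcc
Serpina3n (chr12:104403801-104404100, plus strand, between genes, upstream of the start): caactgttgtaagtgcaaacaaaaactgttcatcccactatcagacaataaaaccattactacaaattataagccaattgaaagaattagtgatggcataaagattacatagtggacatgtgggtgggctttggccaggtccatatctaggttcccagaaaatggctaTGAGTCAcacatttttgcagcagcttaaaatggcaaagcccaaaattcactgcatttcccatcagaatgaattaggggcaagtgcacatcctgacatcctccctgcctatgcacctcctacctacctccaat
Aspa (chr11:73318551-73318850, minus strand, inside the gene, in an exon of a noncoding transcript): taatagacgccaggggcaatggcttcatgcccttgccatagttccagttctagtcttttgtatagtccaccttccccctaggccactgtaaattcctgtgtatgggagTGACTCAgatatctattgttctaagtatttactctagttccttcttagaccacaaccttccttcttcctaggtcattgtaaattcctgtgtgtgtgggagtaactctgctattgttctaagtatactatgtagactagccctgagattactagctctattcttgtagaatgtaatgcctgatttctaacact
Dyrk4 start element (chr6:126921201-126921500, minus strand, intron): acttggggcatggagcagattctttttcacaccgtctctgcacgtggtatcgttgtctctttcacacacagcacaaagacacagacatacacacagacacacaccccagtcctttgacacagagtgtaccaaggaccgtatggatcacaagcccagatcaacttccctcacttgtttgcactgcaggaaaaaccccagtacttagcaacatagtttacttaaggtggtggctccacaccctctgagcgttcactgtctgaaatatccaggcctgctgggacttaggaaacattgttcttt
Dyrk4 inner element (chr6:126907601-126907900, minus strand, intron): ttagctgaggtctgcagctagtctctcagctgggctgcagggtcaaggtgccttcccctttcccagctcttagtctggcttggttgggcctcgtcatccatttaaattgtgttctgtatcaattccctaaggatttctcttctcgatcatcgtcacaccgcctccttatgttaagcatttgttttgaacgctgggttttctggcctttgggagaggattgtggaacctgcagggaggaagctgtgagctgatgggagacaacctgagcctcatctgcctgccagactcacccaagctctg

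An AP-1 match begins at base 225 of the Bpifa1 window, base 240 of Reg3g, base 169 of Serpina3n and base 109 of Aspa, counted from the 5′ end as printed. Windows of 4 of the 10 strongly selective regions held one, as did 13 of all 42 regions at these genes (31.0%), against 23.5% of 170859 open regions in the genome. All 4 are printed above, while of the strongly selective regions without a match only the Dyrk4 start element is. The other motifs were searched on both strands in the same windows. They were GRHL (AACNGGTT), TEAD (GGAATG), ETS (CCGGAAGT), FOX (TGTTTAC), C/EBP (TTGCNNAA), STAT (TTCNNNGAA), NF-kB (GGGANNTCC), KLF (GGGCGTGG) and SOX (AACAATG), and each occurred in 0 or 1 of the 10 windows. Their shares over all open regions were 3.42%, 18.5%, 0.962%, 5.83%, 13.0%, 9.04%, 3.89%, 2.23% and 5.53%, in that order. Over all 42 regions at the genes TEAD matched 11 (26.2%), NF-kB 4 (9.52%), C/EBP 4 (9.52%), GRHL 3 (7.14%), SOX 3 (7.14%), FOX 2 (4.76%), STAT 1 (2.38%) and ETS and KLF 0. RefSeq promoters of 300 bases were matched by symbol for 9 of the 10 genes, Adgrg1 with 2, and 3 of these 10 held an AP-1 match against 7.81% of 32851 promoters. A match is a run of letters and shows no binding.

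Clusters were made from 142949 of the 170859 open regions. Regions cut in few cells were left out, as were those within 50 kb of the genes, so that the genes' own loci did not place a cell. Barcodes carrying 5000 fragments or more were counted as cells. There were 376, 636 and 552 of them in the uninjured libraries and 1130, 359 and 626 in the injured ones, in replicate order here and below, or 3679 in all, with 14299930 to 43413534 cut sites per library. Any pair of libraries shared at most 3 cell barcodes. Of 9 larger clusters, the one with the highest mean level of the genes (cluster 2, hereafter the cluster) held 779 cells. It made up 14.4%, 14.8% and 26.3% of cells in the uninjured libraries and 15.3%, 19.8% and 38.7% in the injured ones. The means were 18.5% ± 6.76 uninjured and 24.6% ± 12.4 injured (SD, n = 3), and both groups' shares overlapped, with replicate 3 highest in each. The direction depended on the clustering. At the finer resolution with the regions at the genes kept, the most open cluster held 17.3%, 19.3% and 31.5% of uninjured and 1.77%, 4.46% and 10.7% of injured cells, without overlap, and a second open cluster held 419 cells. A finer division gave a core of 79 cells with the highest mean level of the genes. For 6 gene bodies the core was the highest of the finer clusters, but not for Aspa, Adgrg1, Dyrk4 or Prss30, which stood at 22.8 CPM in it and at 45 CPM in the rest of the cluster. That core was 0.798%, 0.786% and 5.07% of uninjured replicates and 0.619%, 0.279% and 5.59% of injured ones, and 28 and 35 of its cells came from uninjured and injured replicate 3.

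Libraries stood apart in 2 ways that touch what follows. Of the 174 cells of cluster 9, the next most open at these genes, 158 came from uninjured replicate 3, where they were 28.6% of cells, and the cluster was led by Kcnv1, Gm38655 and Tmem89. Cluster 5, in which all 7 markers of olfactory sensory neurons were higher than in other cells (median log2 difference 3.25), made up 24.8% of injured replicate 3 and 2.12% to 9.24% of the other libraries. Cluster 1 held 822 cells, 784 of them uninjured, with 9 of 9 horizontal basal cell markers higher than in other cells. Cluster 7 held 1246 cells, 1241 of them injured, and had Gm14137, Krt16, Olfr432 and Krt6a as its leading genes. Within the cluster, 1 finer cluster held 250 uninjured and 49 injured cells and another held 1 uninjured and 394 injured cells, the core making up most of the rest, so comparisons within it also compare those finer clusters. Barcodes called doublets made up 0% to 29.6% of the cluster by library and 11.8% to 16.1% of other cells.

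Airway markers were mostly, but not all, higher in the cluster. The marker lists were chosen with earlier results of these data known, and the cluster by genes listed for airway-like cells. The counts below therefore cannot bear out the airway label. Gene bodies of 16 of 20 airway basal and secretory markers had higher levels in the cluster than in other cells, with a median log2 difference of 0.50 against 0.00 over all genes. Clusters 9 and 8 each had 12 of 20 higher, with medians of 0.33 and 0.34. Adh7, a retinol-oxidising dehydrogenase of airway epithelium, stood at 50.8 CPM against 15, but was among the genes by which such cells had earlier been called airway-like. Agr2, a mucin-folding isomerase, stood at 47.4 against 22.2, and the mucin gene Muc5b at 16.3 against 8.22. The club cell secretoglobin Scgb1a1 was near the floor and lower in the cluster (0.606 against 0.924 CPM), as were Ly6d, Krt13 and the better covered mucin gene Muc16 (21.2 against 25.7 CPM), and Muc5ac stood at 11.6 against 11.4 CPM. The horizontal basal cell list was higher for 7 of 9 genes (median log2 0.24), with Trp63 at 162 against 137 CPM and Krt14 at 68.2 against 58.0, while Krt5 was at 54.2 against 64.5. Of 6 olfactory identity genes 5 were higher (median 0.19) and Emx2 was lower, at 8.78 against 26.0 CPM. The 10 activation genes were divided, 5 higher and 5 lower, with the stress keratins Krt16 (3.25 against 16.2) and Krt6a (4.63 against 13.9) among the lower ones. In the core of 79 cells 19 of 20 airway markers were higher (median 1.00), with Muc5b at 60.3 against 8.68 CPM, and 3 of 9 horizontal basal cell markers were. In that core 4 of 6 sustentacular markers (median 0.53), 5 of 8 ciliated and 4 of 7 Bowman gland markers were higher too. The lists are counted here in cells grouped by accessible regions across the genome, so the counts are descriptive, and the cluster is referred to by its number rather than as a cell type.

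**Figure D1:**
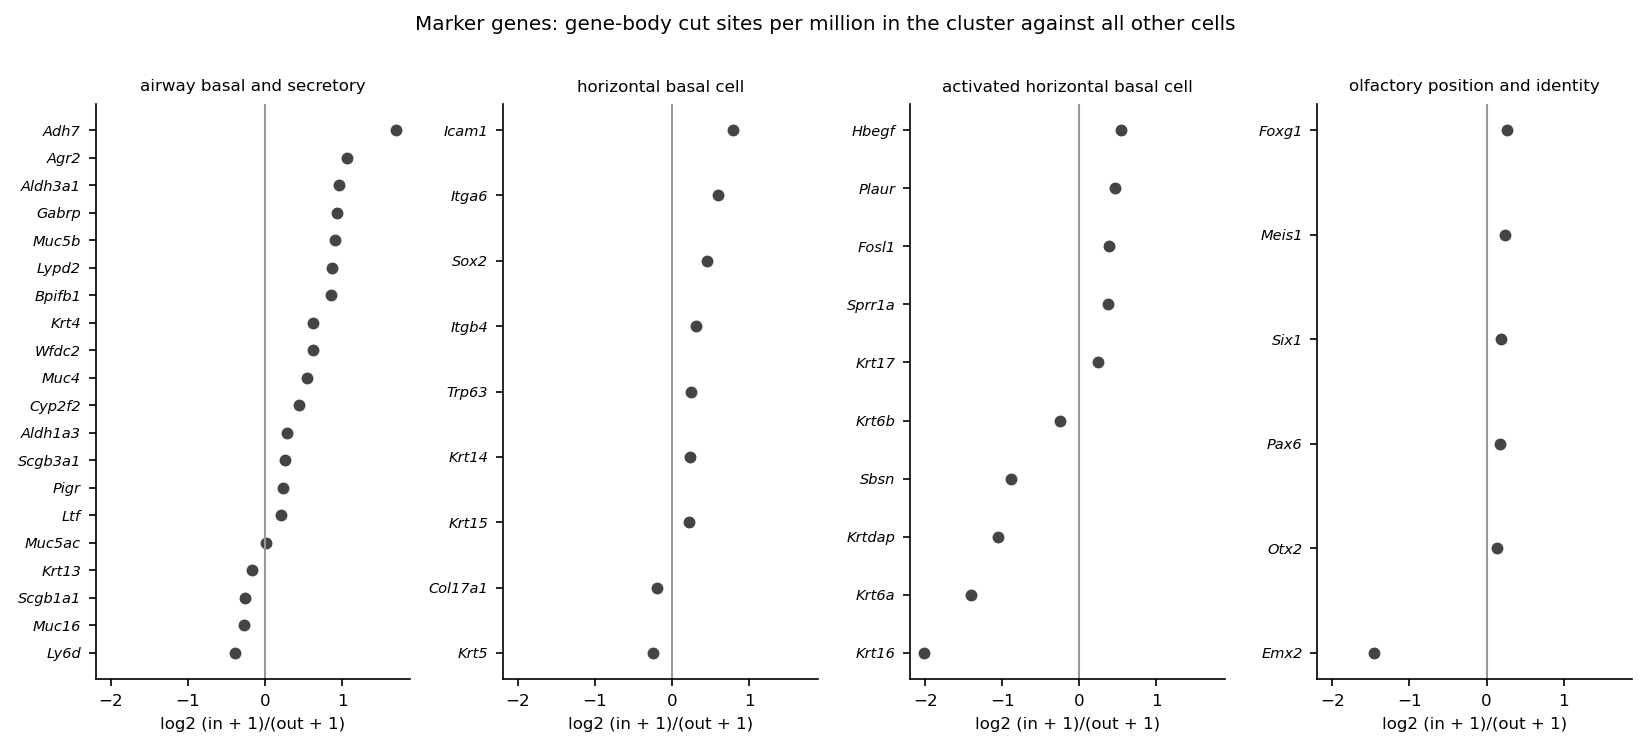
Each point is a marker gene, placed by the log2 ratio of its gene-body level (CPM + 1) in the cluster to that in all other cells, in 4 panels by marker list. Adh7 lies farthest right among the airway markers, Krt16 and Krt6a lie left of 0 among the activation genes, and Emx2 does so among the olfactory identity genes.

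Other lists bore on which cells the cluster could hold. None of the 7 markers of olfactory sensory neurons and none of the 6 of neuronal precursors was higher in the cluster, and 1 of 6 sustentacular, 3 of 8 ciliated and 2 of 7 Bowman gland markers were. For microvillar cells it was 3 of 5 markers, for immune cells 3 of 8, and for fibroblast and endothelial cells 1 of 6. The neuron list summed to 130 CPM in the cluster and 201 CPM in other cells, with 116 to 130 CPM in injured and 109 to 150 CPM in uninjured libraries of the cluster. The sustentacular list summed to 102 against 79.2 CPM, with Cbr2 at 78 against 40.9, and the Bowman gland list to 94.6 against 86.4 CPM. By library the sustentacular sum in the cluster ran from 83.4 to 132 CPM uninjured and 69.8 to 98.4 CPM injured, and the Bowman gland sum from 106 to 117 and 84.6 to 91.5 CPM. In the cluster none of these lists' genes was at 0. The part of such cells in the levels below was not tested.

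Bpifa1 was the most selective of the mucosal genes. Over whole libraries its gene body held 2.31, 2.70 and 4.22 CPM in uninjured replicates and 2.40, 2.58 and 4.09 CPM in injured ones, so replicate 3 was highest in each group and the groups overlapped. In the cluster it stood at 10.3 CPM, followed by the 37 cells of cluster 6 at 6.59 CPM, a level that rests on only a few cut sites, and the 95 cells of cluster 4 at 3.79 CPM. Clusters 1, 7, 9 and 5 were at 1.51, 0.868, 1.43 and 0.359 CPM. It ranked first of all genes by log2 ratio in the cluster over other cells (2.32), and in the core of 79 cells it reached 26.7 CPM. The element printed above, next to its start, held 5.40 CPM in the cluster and 0.289 CPM elsewhere. Between libraries the cluster's level ranged from 3.61 CPM in uninjured replicate 1, resting on 9 cut sites, to 18.9 CPM in uninjured replicate 2.

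Reg3g did not separate the cluster from cluster 9. Its gene body stood at 7.41, 5.82 and 19.8 CPM in uninjured libraries and 4.56, 3.44 and 10.7 CPM in injured ones. By cluster it was highest in cluster 9 (26.1 CPM), next in the cluster (24.8 CPM) and much lower in clusters 1 and 7 (5.56 and 1.83 CPM). Uninjured replicate 3, the library with the most cluster 9 cells, had the highest level of Reg3g over all cells. In that library's cells outside both clusters Reg3g was at 4.53 CPM, against 26.7 CPM in cluster 9 and 33.7 CPM in the cluster. Its accessible DNA was mostly at the start, where the promoter window alone held 21.3 of the 24.8 CPM.

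Tff2 was higher in the cluster than in cluster 9, but unevenly within it. Whole-library levels over its gene body were 6.71, 6.59 and 13.9 CPM uninjured and 4.75, 5.11 and 11.4 CPM injured, again highest in replicate 3 of both groups. The cluster stood at 20.2 CPM and cluster 9 at 4.91 CPM, while the sensory neuron-marked cluster 5 was second, at 10.0 CPM. The finer cluster with most of the cluster's injured cells had only 9.47 CPM, and a finer cluster outside it reached 13.1 CPM. In cells thinned to 5000 fragments each, 9.76% of the cluster's cells had a cut site in Tff2 (exact 95% interval 7.76% to 12.1%), against 0.575% of cluster 9 (0.0145% to 3.16%) and 6.69% of cluster 5. Without thinning the first 2 shares were 27.9% and 10.9%, at median depths of 19004 and 28200 fragments. Intervals here cover counting error only.

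**Figure D2:**
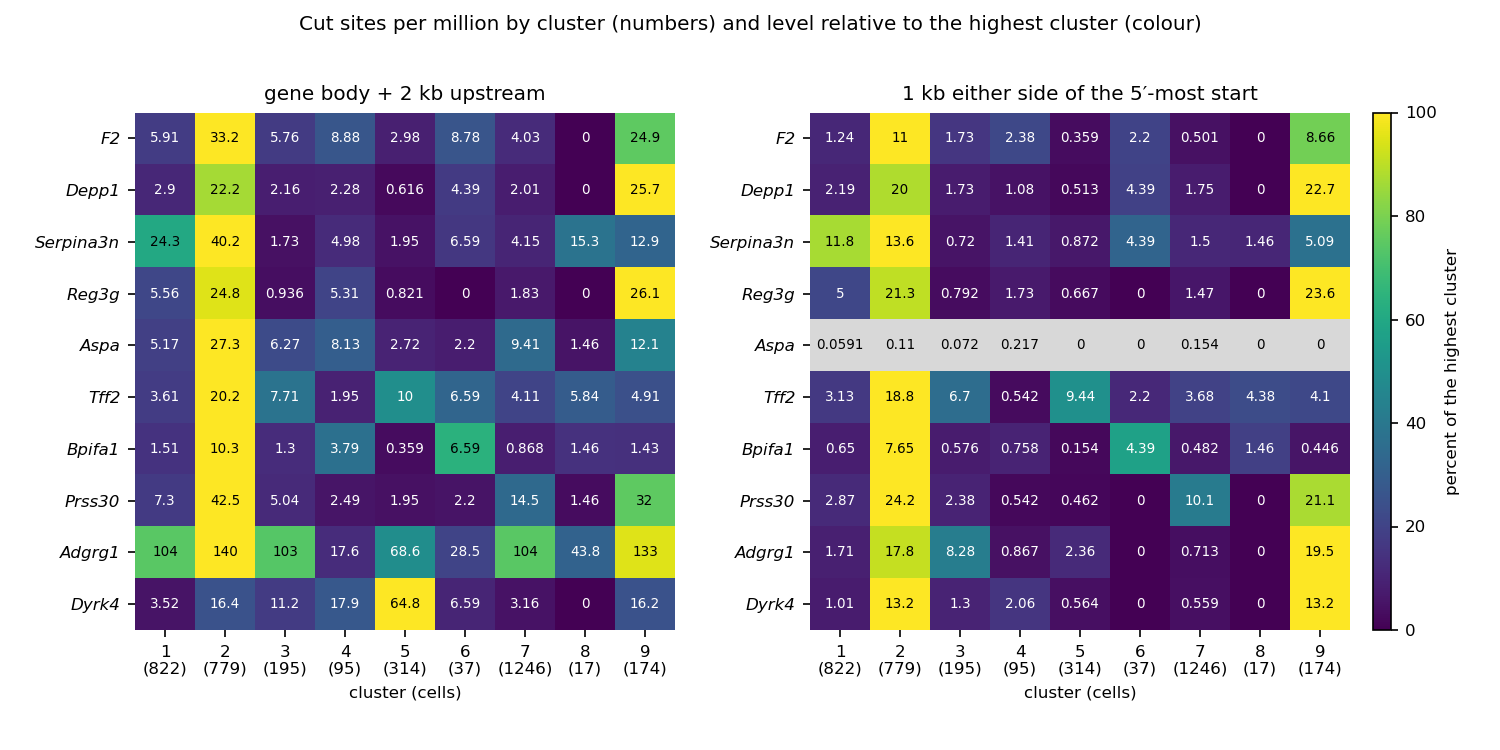
Numbers are CPM over the gene body with 2 kb upstream (left) or within 1 kb of the 5′-most start (right), and colour is the level as a percent of the gene's highest cluster, with cell numbers in brackets. Aspa's promoter row is grey because no cluster passed 0.217 CPM. Cluster 2 and cluster 9 share high levels for F2, Depp1, Reg3g and Prss30, while Tff2 and Bpifa1 are high in cluster 2 and not in cluster 9.

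F2, the prothrombin gene best known from liver, was open in both clusters. Its gene body level was 8.18, 5.85 and 23.3 CPM in uninjured and 9.77, 7.52 and 14.2 CPM in injured libraries. The cluster had 33.2 CPM and cluster 9 had 24.9 CPM, against 5.91 CPM in cluster 1 and 4.03 CPM in cluster 7. A region of 2000 bp inside the gene, 3413 bp past the start, held 19.2 CPM in the cluster and 3.25 CPM in other cells (ratio 5.92). A region of 1000 bp, 587 bp before the start, held 10.6 and 1.23 CPM (ratio 8.62). The regions differ in width, so their levels do not show where the signal was denser. A cut site in F2 was seen in 13.2% of thinned cells of the cluster (10.9% to 15.8%) and 10.3% of cluster 9 (6.25% to 15.9%). It was seen in 2.19% of cluster 1 and 1.27% of cluster 5.

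Prss30 was the gene most often cut in the cluster after Adgrg1. After thinning 21.6% of the cluster's cells had a cut site in Prss30, against 17.8% in cluster 9, 6.74% in cluster 7 and 3.77% in cluster 1. Whole libraries held 10.1, 8.59 and 19.2 CPM uninjured and 17.1, 20.1 and 23.3 CPM injured, so uninjured replicate 3 lay inside the injured range. Cluster 7, made almost wholly of injured cells, stood at 14.5 CPM and the uninjured cluster 1 at 7.30 CPM. The widest region around the start held 69.5 CPM in the cluster and 15.3 CPM in other cells. Its 300 bases with the most cut sites were centred 2184 bp before the 5′-most start, outside the promoter and gene-body windows. RefSeq's promoter of Prss30 (chr17:23975181-23975480) lies inside the gene, away from that start and in none of the 42 open regions.

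Serpina3n was shared with cluster 1 instead. Its gene body stood at 34.6, 13.5 and 22.6 CPM in uninjured and 7.16, 5.46 and 20.7 CPM in injured libraries. The cluster had 40.2 CPM, cluster 1 had 24.3 CPM and cluster 7 had 4.15 CPM, and the promoter window had 13.6, 11.8 and 1.50 CPM in the same order. The upstream element printed above was more selective than the gene as a whole, at 17.7 CPM in the cluster and 2.67 CPM outside it. Serpina3n lies in a row of closely related copies on chromosome 12, so reads shared with its paralogues may have been placed among them or dropped by the authors' mapping.

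Depp1, like Reg3g, was highest in cluster 9 and next in the cluster. The gene body held 4.62, 5.79 and 16.1 CPM in uninjured and 4.98, 4.6 and 8.41 CPM in injured libraries. Cluster 9 (25.7 CPM) and the cluster (22.2 CPM) stood above clusters 1 and 7 (2.90 and 2.01 CPM), and 20 of the cluster's 22.2 CPM lay in the promoter window. In uninjured replicate 3 the cells outside both clusters had 0.323 CPM, resting on 4 of its 501 cut sites, while 270 came from cluster 9 and 227 from the cluster. Rassf4 overlaps the window of Depp1, and cut sites there cannot be told apart between both genes.

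Aspa was open away from its 5′-most start. Its gene body held 8.74, 6.95 and 12.9 CPM in uninjured libraries and 10.5, 13.2 and 14.3 CPM in injured ones. The promoter window had at most 0.217 CPM in any cluster, and windows around every annotated start together had 1.26 to 2.40 CPM per library. RefSeq's promoter of Aspa lies further in, in a weakly open region, chr11:73324501-73325000. That region held 1.05 CPM in the cluster and 0.113 CPM in other cells. The printed element inside the gene, chr11:73318001-73319500, held 21.1 CPM in the cluster, 8.39 CPM in cluster 9, 4.99 CPM in cluster 7 and 0.103 CPM in cluster 5. It accounted for most of the 27.3 CPM over the whole gene in the cluster. Spata22 and Gm49340 overlap the upstream end of the gene's window.

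Dyrk4 went against the label over its gene body and with it at its start. Rad51ap1 overlaps its window. The gene body level was 16.4 CPM in the cluster and 64.8 CPM in cluster 5, and inside the cluster it exceeded that outside in 3 of 6 libraries. Both printed elements opened in different cells. At the start element, chr6:126921001-126922000, the cluster had 12.2 CPM, cluster 9 had 12.7 CPM and cluster 5 had 0.359 CPM. At the inner element, chr6:126906501-126908500, cluster 5 had 55 CPM, cluster 3 had 4.32 CPM and the cluster had 0.165 CPM, from 4 cut sites in injured replicate 1 and 2 in injured replicate 3. Across libraries the inner element was highest in injured replicate 3, the library richest in cluster 5 cells (15.2 CPM against 1.27 to 8.46 CPM in the others). By the promoter window Dyrk4 ranked 3rd of all genes for the cluster (log2 ratio 2.33), and by the gene body it ranked 5651st.

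**Figure D3:**
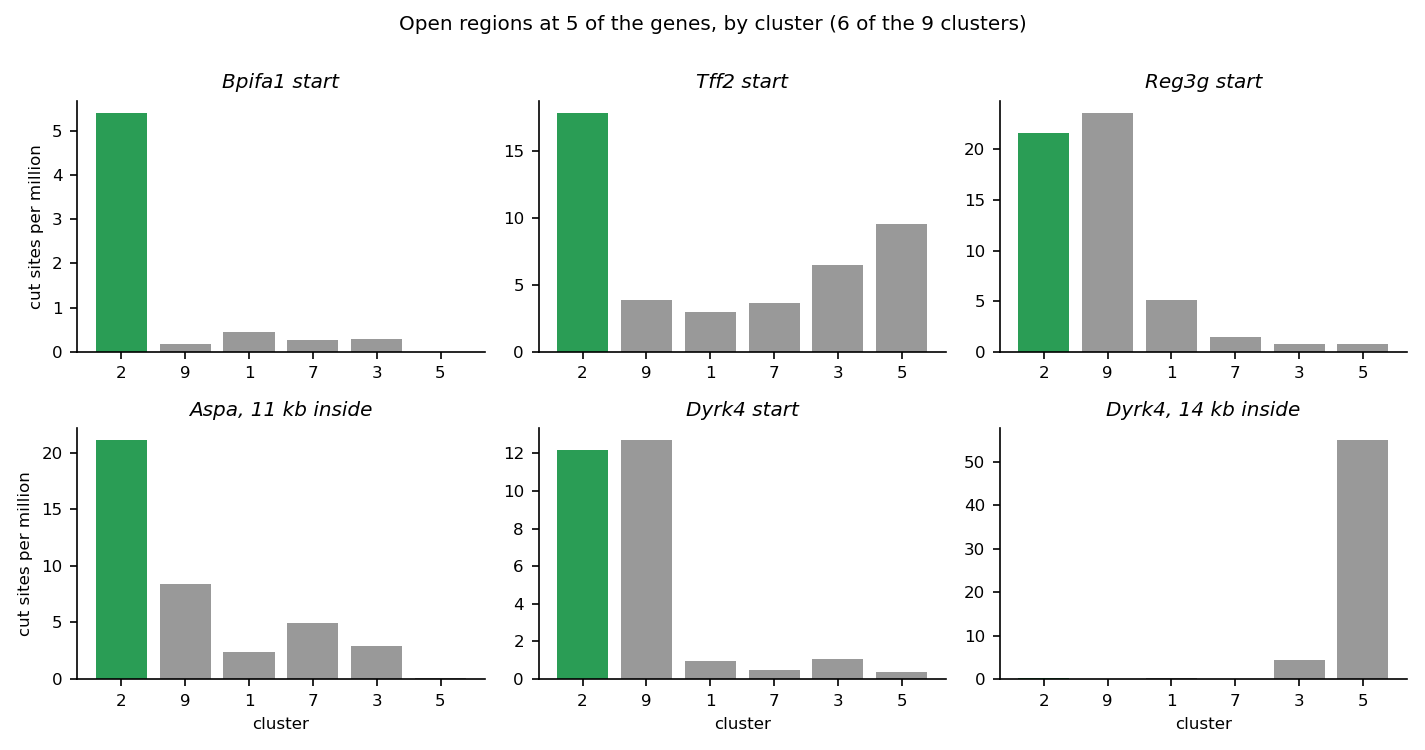
Bars give the level in CPM of 6 open regions in 6 of the 9 clusters, the cluster in green and others in grey, each panel with its own axis from 0. The Dyrk4 start is open in clusters 2 and 9 and its inner region in cluster 5, while the Tff2 start has a second, lower peak in cluster 5.

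Adgrg1 was open in most cells and more selective at its first start than over the gene. Its gene body held 93.9 to 116 CPM in every uninjured library and 96.9 to 109 CPM in every injured one, with 140, 133, 104 and 104 CPM in the cluster, cluster 9, cluster 1 and cluster 7. The gene body ratio in the cluster over other cells ran from 1.18 to 1.97 by library. At the 5′-most start the same clusters had 17.8, 19.5, 1.71 and 0.713 CPM, with 8.28 CPM in cluster 3, and the ratio ran from 2.24 to 30.9. A region 18250 bp inside the gene also stood higher in the cluster, at 19.7 against 9.63 CPM. Windows over every annotated start held 65.2 to 81.6 CPM per library, so the broad signal lies at later starts. By gene body Adgrg1 ranked 641st of all genes for the cluster and by promoter 10th.

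Per kb of window, which allows genes to be compared, Adgrg1 was highest over the gene body (2.52 CPM per kb, mean of 6 libraries), followed by Reg3g (1.87), Serpina3n (1.81) and Depp1 (1.77). Next by gene body came Prss30 (1.57), Tff2 (1.54), F2 (0.877), Aspa (0.418), Bpifa1 (0.366) and Dyrk4 (0.311), and neighbours in this order differed by less than the larger of their SDs over uninjured libraries. Around the start Prss30 was highest (4.72 CPM per kb), followed by Reg3g (3.68) and Tff2 (3.62). Inside the cluster the gene bodies stood above other cells of the same library in 57 of 60 gene and library pairs, and the 3 exceptions were all Dyrk4. For promoters it was 51 of 52 pairs with enough cut sites, the exception being F2 in 1 library. The cluster was picked for high levels of these genes over the same libraries, so both counts describe that choice.

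**Figure D4:**
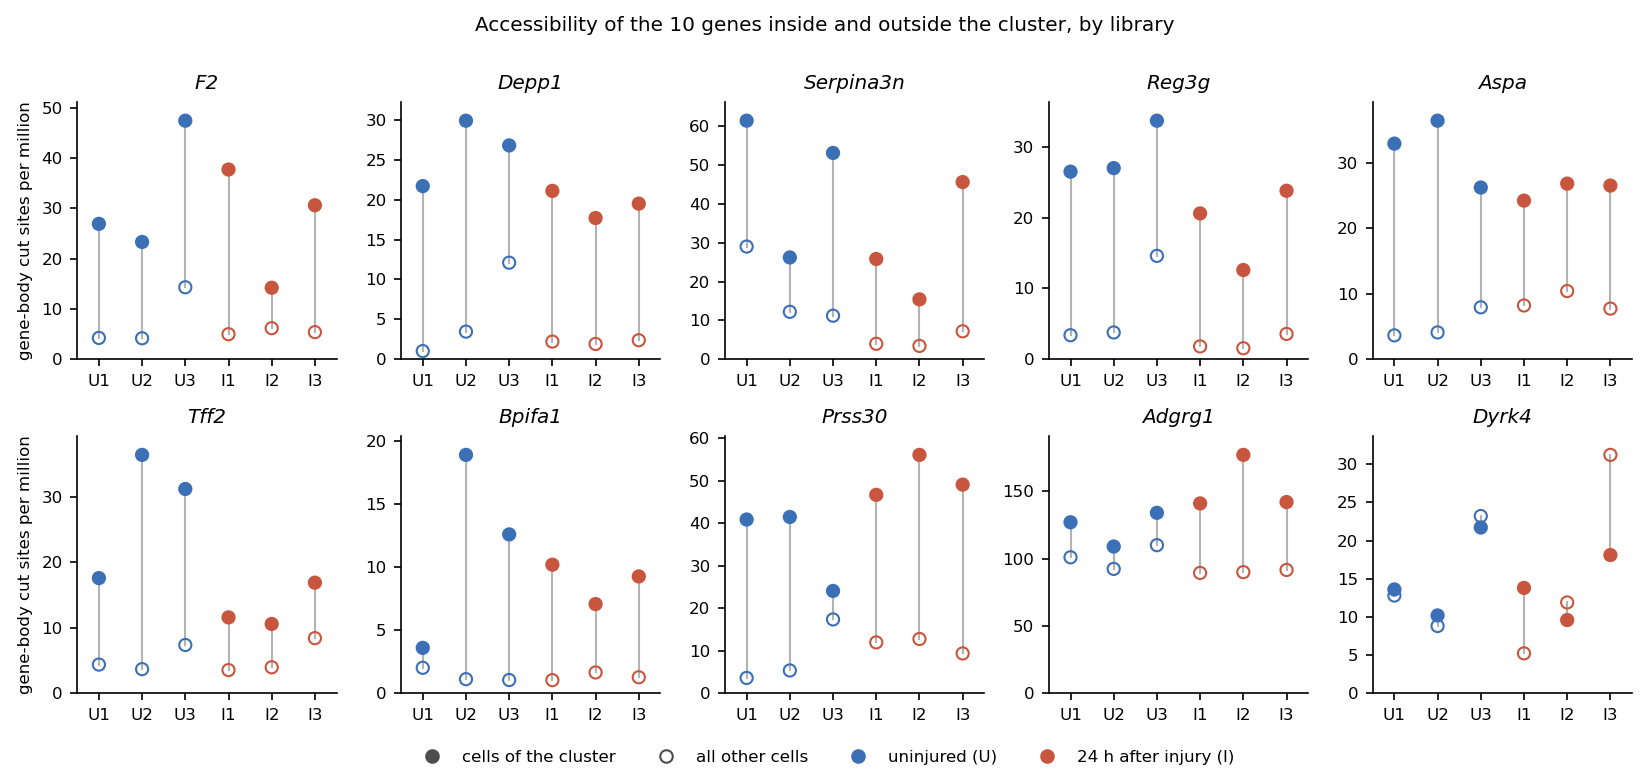
Filled points are the gene-body level of each gene in cells of the cluster and open points that in all other cells of the same library, in CPM, with uninjured (U) in blue and injured (I) in red. The 2 points are joined by a line in each library, and for Dyrk4 the open point lies above the filled one in 3 of 6 libraries.

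Within single cells the genes were seldom cut together. With every cell thinned to 5000 fragments a cell of the cluster had a cut site in a mean of 1.53 of the 10 genes, against 1.11 in cluster 9, 0.634 in cluster 1, 0.608 in cluster 7 and 0.587 over all cells outside both clusters. In the cluster 19.3% of cells (150 of 779) had at least 3 of the genes cut and 18.2% had none, while 1.17% of cells outside both clusters had at least 3. By library the cluster's mean ran from 1.54 to 1.63 uninjured and from 1.36 to 1.57 injured. The median correlation of gene-body log2(CPM + 1) over the 45 pairs, across cells within a library and averaged over 6 libraries of 359 to 1130 cells, was 0.11 (SD over libraries 0.03), against 0.04 for the same genes with 20251 others. The strongest pair was F2 with Depp1 (0.23), and Dyrk4 had the lowest mean with the other genes (0.04). After thinning the median was 0.04 against -0.01, and among thinned cells of the cluster it was 0.01 against -0.02. Without thinning, the cluster's median was 0.06 against 0.05 with other genes, and its pairs ran from -0.03 to 0.15, the highest being F2 with Depp1 and Serpina3n with Reg3g. Cells of a library differ in depth, and correlations this weak in sparse counts are given as a description only.

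Among 15543 genes over 500 kb away and cut in at least 10% of cells, those whose gene body followed the mean of the 10 genes most closely were 5430419D17Rik (mean correlation 0.35 over 6 libraries), S100a6 (0.34), Mipol1 (0.34), Lgals3, Tacr1, Adh7 and Exph5 (0.33 each) and Emp1 (0.32). The candidates' median was 0.13. S100a6 encodes a calcium-binding protein, Lgals3 the lectin galectin-3, Tacr1 the substance P receptor and Emp1 an epithelial membrane protein. In the cluster S100a6 stood at 122 CPM against 57.1 CPM in other cells and Lgals3 at 198 against 89.4 CPM.

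The change 24 h after injury was tested over all genes with cut sites summed per library, by edgeR's quasi-likelihood test with Benjamini-Hochberg adjustment at 0.05. Over all cells none of the 10 gene bodies and none of the 9 promoters tested passed, where 5.73% of 20261 gene bodies (3.32% higher, 2.41% lower) and 4.04% of 17085 promoters (2.27% higher, 1.77% lower) did. At an unadjusted p under 0.05 there were 1 gene body and 2 promoters of these genes, where 2821 gene bodies were higher and 3043 lower in the whole table and 1777 and 1965 promoters. DESeq2 called the gene body of Prss30 and 0 of the promoters. Over all genes it called 1719 gene bodies higher and 1228 lower, and 1007 and 916 promoters. The 10 genes' median log2 change was -0.06 over gene bodies and -0.25 at promoters, against 0.00 for all genes tested. Of the calls over all cells 57.9% of gene bodies and 56.1% of promoters were higher, against 27.4% and 6.03% with libraries scaled by total cut sites. Leaving out uninjured replicate 1 or 2 or injured replicate 2 left 0 gene bodies called over the whole table. In none of the 10 gene bodies did injured and uninjured libraries separate, against 37.5% of genes. Serpina3n separated by promoter, by 6.58 CPM injured against 6.63 CPM uninjured, where 50.3% of promoters separated. Separation, here and below, was judged on CPM, which scales by total cut sites, unlike the fits. That scaling shifted the median log2 change by -0.09 for gene bodies and -0.28 for promoters. Shares by direction are not given here.

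Prss30 and Serpina3n came nearest to the threshold over all cells. The promoter of Prss30 means the window at its 5′-most start, which does not hold RefSeq's promoter. This window held 4.41, 4.12 and 11 CPM in uninjured and 10.8, 12 and 14.3 CPM in injured libraries. Uninjured replicate 3 overlapped the injured range. The log2 change of the promoter window was 1.18 ± 0.34 (SE, edgeR, adjusted p = 0.0914). Without the 174 cells of cluster 9 the log2 change was 1.61 with an adjusted p of 0.000671, and without uninjured replicate 3 it was 1.81 with an adjusted p of 0.000419. Cluster 9 was singled out by the levels of the 10 genes, with the Prss30 promoter at 21.1 CPM, and 164 of its cells were uninjured. Leaving it out removes open Prss30 almost only from uninjured libraries and gives no separate support. In all, 3 of 19 alternative settings called the promoter. Over the gene body the log2 change was 0.76 ± 0.27 (edgeR, adjusted p = 0.108), and 1.03 with an adjusted p of 0.0177 without cluster 9. There, 4 of 18 alternative settings called it.

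The Serpina3n estimate had the opposite sign. Its promoter held 14.1, 6.63 and 8.66 CPM in uninjured and 2.70, 2.06 and 6.58 CPM in injured libraries, which did not overlap, yet the log2 change of -1.09 ± 0.39 did not pass (edgeR, adjusted p = 0.141). Without injured replicate 3 it was -1.66 with an adjusted p of 0.00196, and with libraries scaled by total cut sites -1.35 (adjusted p = 0.0426). In all, 4 of 19 alternative settings called the promoter of Serpina3n. They include the cells outside the cluster, a different set of cells whose result is given next and adds no separate support. In cells outside the cluster its promoter fell by 2.11 ± 0.42 on the log2 scale (edgeR, adjusted p = 0.0244), from 13.7, 6.49 and 4.87 CPM to 1.48, 0.932 and 2.21 CPM. There it was 1 of 9 promoters called, against 2.47% of 16387 (1.42% higher, 1.04% lower). Inside the cluster the log2 change was -0.21 ± 0.27 (adjusted p = 0.933), with 16, 8.02 and 18.8 CPM uninjured and 9.75, 7.58 and 14.6 CPM injured. The difference between the changes was 1.80 ± 0.47 on the log2 scale, which did not pass (edgeR with library as a block, adjusted p = 0.169). Of 6 such fits that left out 1 library, only that without uninjured replicate 3 passed (2.43, adjusted p = 0.0282). Outside the cluster most uninjured cells are in cluster 1 and most injured cells in cluster 7, so a change within cells and a change in which cells were captured cannot be told apart.

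**Figure D5:**
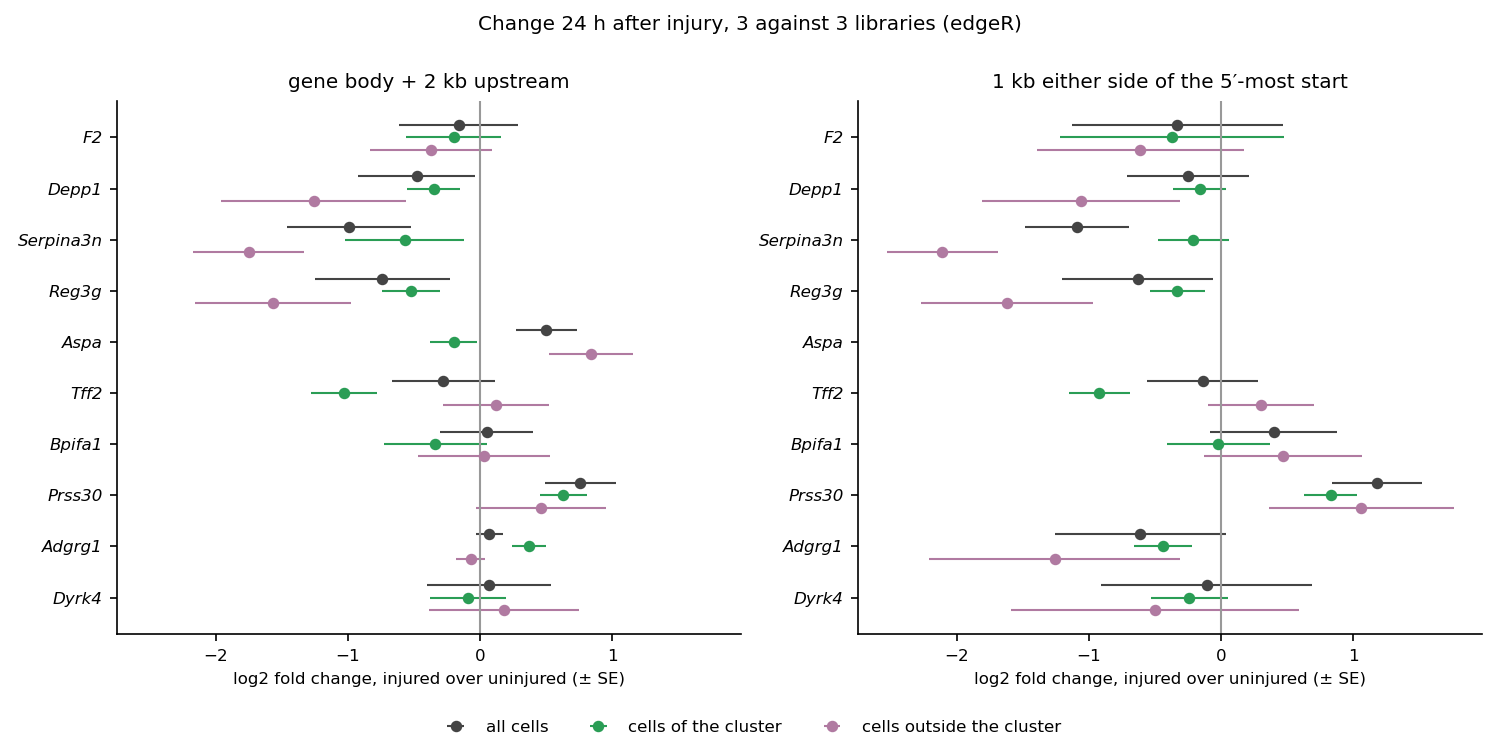
Points are the log2 change of injured over uninjured libraries with its standard error from edgeR, for all cells (grey), cells of the cluster (green) and cells outside it (purple), by gene body (left) and promoter (right). The purple point of Serpina3n lies at -2.11 for the promoter and is the only one past the threshold, and the green points of Tff2 lie at -1.03 and -0.92 while its other points lie between -0.28 and 0.30.

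Inside the cluster Tff2 had the lowest log2 change of the 10. Its gene body stood at 17.6, 36.4 and 31.2 CPM in uninjured and 11.6, 10.6 and 16.9 CPM in injured libraries. On CPM every injured library lay below every uninjured one, the nearest being 16.9 and 17.6 CPM. The log2 change of -1.03 ± 0.25 fell short of the threshold (edgeR, adjusted p = 0.0548). DESeq2 gave -1.04 with an adjusted p of 0.0312, and the fit with no filter on low counts gave an adjusted p of 0.0108. Without uninjured replicate 1 the adjusted p was 0.0274 and without injured replicate 3 it was 0.0490. In all, 5 of 12 alternative settings called the gene body. Adding the 174 cells of cluster 9 gave -0.63 with an adjusted p of 0.432. Over all cells Tff2 changed by -0.28 ± 0.39 (adjusted p = 0.665), and outside the cluster by 0.12 ± 0.40 (adjusted p = 0.862). The difference between the changes inside and outside was -1.15 ± 0.40 and did not pass (edgeR, adjusted p = 0.420).

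The same comparison left none of the 10 gene bodies called in the cluster, where 0.771% of 16986 were (0.677% higher, 0.0942% lower), with 4 at an unadjusted p under 0.05 and 1, Tff2, called by DESeq2. Over all gene bodies 1407 were higher and 907 lower at an unadjusted p under 0.05, and DESeq2 called 179 higher and 31 lower. On CPM, libraries of both groups separated for 5 of 10 gene bodies, against 22.4% of genes: Depp1, Reg3g and Tff2 lower after injury, Prss30 and Adgrg1 higher. Some gaps were thin, as for Depp1 with 21.7 CPM uninjured against 21.1 CPM injured. Scaling by total cut sites shifted the median log2 change over all gene bodies in the cluster to -0.07, from 0.00 in the fits. Prss30 had 40.9, 41.5 and 24.1 CPM uninjured and 46.7, 56.1 and 49.1 CPM injured, a log2 change of 0.63 ± 0.18 (adjusted p = 0.111). It passed without uninjured replicate 2 (0.80, adjusted p = 0.0437) and with no filter on low counts (0.64, adjusted p = 0.0358). These were 2 of 13 alternative settings. Adgrg1 had 127, 109 and 134 CPM uninjured and 141, 177 and 142 CPM injured, a log2 change of 0.37 ± 0.13 (edgeR, adjusted p = 0.172). Reg3g had 26.5, 27.0 and 33.7 CPM uninjured and 20.6, 12.6 and 23.8 CPM injured, a log2 change of -0.52 ± 0.22 (edgeR, adjusted p = 0.281). The median over the 10 genes was -0.27. Over whole finer clusters, of which 299 of 400 and 395 of 482 cells lay in the cluster, the one with most of its uninjured cells had 22.1 CPM of Tff2 and 29.9 CPM of Prss30, and the one with most of its injured cells 9.47 and 47.2 CPM.

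For promoters in the cluster 0.0441% of 13620 passed (0.0367% higher, 0.00734% lower) and none of the 9 tested here did. Of the promoters called in the cluster 83.3% were higher, and 5.26% were when libraries were scaled by total cut sites (3 higher, 54 lower). For gene bodies in the cluster these shares were 87.8% and 67.7%. On CPM the same 5 genes had promoters whose groups did not overlap, against 25.2% of all promoters. Here too gaps could be thin, as for Depp1 with 20.5 CPM uninjured against 19.8 CPM injured. The median log2 change over all promoters in the cluster was -0.21 with scaling by total cut sites and -0.01 in the fits. Adgrg1 had the opposite direction there, with 18.9, 16.8 and 28.1 CPM uninjured and 14.8, 14.4 and 13.3 CPM injured (log2 -0.44 ± 0.22, edgeR, adjusted p = 0.690). Tff2 again had -0.92 ± 0.23 (adjusted p = 0.148) and Prss30 0.83 ± 0.20 (edgeR, adjusted p = 0.124), and Prss30 passed without uninjured replicate 2 (1.06, adjusted p = 0.0228) while Tff2 did without uninjured replicate 1 (-1.16, adjusted p = 0.00592). Of 12 alternative settings each, only 3 called Prss30 and 4 called Tff2. At an unadjusted p under 0.05 there were 2 promoters of these genes, where 516 were higher and 467 lower over all 13620. DESeq2 called none of these genes, and 11 higher and 2 lower over all promoters. Outside the cluster none of the 10 gene bodies passed, against 4.89% of 19921 (2.71% higher, 2.18% lower), with Serpina3n at -1.75 ± 0.42 (adjusted p = 0.0506), Reg3g at -1.57 ± 0.59 (adjusted p = 0.136) and Aspa at 0.84 ± 0.32 (edgeR, adjusted p = 0.138), the 3 with an unadjusted p under 0.05. Over all 19921 gene bodies there, 2555 were higher and 2888 lower at an unadjusted p under 0.05. No gene body out of 19209 differed in its change between the cluster and other cells at an adjusted p under 0.05, although 906 higher and 662 lower differences had an unadjusted p under 0.05. Of promoters 0.115% of 15607 differed (0.0513% higher, 0.0641% lower) and none was of these genes, with 3 of theirs at an unadjusted p under 0.05. Over all promoters 598 higher and 441 lower differences had an unadjusted p under 0.05.

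Of the 42 regions at the genes, 41 could be tested over all cells, and 2 rose after injury and none fell, against 6.37% and 1.66% of 155688 regions (8.03% either way). Both were weakly open, and neither was called when uninjured replicate 1 or 2 or injured replicate 1 or 2 was left out. A region 38 kb inside Adgrg1 (chr8:95012501-95013000, intron) held 0.350, 0.161 and 0.225 CPM uninjured and 1.82, 1.29 and 1.17 CPM injured, a log2 change of 2.73 ± 0.54 (edgeR, adjusted p = 0.0157). By cluster it was highest in cluster 7, at 2.66 CPM, and stood at 0.248 CPM in the cluster. The other lay 4685 bp upstream of Prss30 (chr17:23985001-23985500, between genes), with 0.559, 0.386 and 0.451 CPM uninjured and 1.17, 1.50 and 1.57 CPM injured, a log2 change of 1.73 ± 0.45 (edgeR, adjusted p = 0.0421). In the cluster 27 regions could be tested and none was called by edgeR, against 0.929% of 58364 (0.781% higher, 0.147% lower). DESeq2 called 1 lower, and its share over all regions is not given here. The start region of Tff2 held 14.8, 34.3 and 27.6 CPM uninjured and 10.1, 8.59 and 14.9 CPM injured there, a log2 change of -1.13 ± 0.28 (edgeR, adjusted p = 0.0519).

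Relatives of the 10 genes were about as often lower as higher in the cluster. Of 53 listed serpin, Reg, trefoil, Bpif, protease, Adgrg, Dyrk, coagulation factor and aminoacylase genes, 52 had a window, and 24 of these were higher in the cluster than in other cells (median log2 -0.02, against 0.00 for all genes). Serpina3g (0.90), Bpifb1 (0.85) and Bpifb5 (0.84) were highest and F7 was lowest (-0.97). After injury 2 of 52 gene bodies rose over all cells and none fell, a share near the 3.32% and 2.41% of all gene bodies. These were the trefoil gene Tff1 by 2.01 ± 0.32 (edgeR, adjusted p = 0.0244) and the protease gene Prss22 by 1.01 ± 0.16 (edgeR, adjusted p = 0.0233). Tff1 went from 0.979, 1.25 and 1.42 CPM to 4.40, 5.54 and 4.01 CPM. Of 29 promoters tested, Bpifb4, Proc and Prss22 rose and Dyrk1a fell (log2 -0.41, edgeR, adjusted p = 0.0125), where 2.27% of all promoters were higher and 1.77% lower. Inside the cluster none of 32 gene bodies and none of 19 promoters of the list passed, with 4 and 3 at an unadjusted p under 0.05 by edgeR. Over all genes there, 1407 of 16986 gene bodies were higher and 907 lower at that level, and 516 and 467 of 13620 promoters.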

How the data were processed

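Single-cell ATAC-seq fragments of 6 libraries were analysed. Per the submitters' processing notes the authors used Cell Ranger 2.0.0 and mm10. The deposited fragment files list each fragment with its barcode and its counts of read pairs, and each fragment was counted once. Both fragment ends were taken as cut sites without a further shift, and the deposited matrices of peak counts were not used. Duplicate handling before deposit is not given in the sources used here.

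Barcodes with at least 5000 fragments were cells. Open regions were 500 bp tiles at 5 times the median tile or more, merged where adjacent. Clusters came from TF-IDF, singular value decomposition (27 of 30 components), 15 neighbours and Leiden clustering at resolution 0.5 and 0.25 (Python 3.11.15, scanpy 1.11.5, scikit-learn 1.9.0, igraph 0.11.9), leaving out regions cut in few cells and 132 regions within 50 kb of the 10 genes. Resolution 0.5 gave the core of 79 cells as the most open cluster, and the larger cluster at 0.25 was taken for the comparisons after seeing the data. Doublets were called in 480 of 3679 cells from positions covered more than a diploid genome allows, and were kept.

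Changes were tested on counts summed per library with edgeR 4.0.16 (R 4.3.3), TMM scaling, filterByExpr and an adjusted p under 0.05, and with DESeq2 1.42.0 as an alternative; the fits were tested on simulated data. Differences inside and outside the cluster used log2(CPM + 1). The 10 genes, the marker lists and the list of relatives were chosen with earlier results of these data known. Named beyond the 10 genes were the most alike genes, relatives with the largest changes, and markers, of which single ones were chosen after their values were seen.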

Additional observations from a re-analysis of the deposited data

How the results depend on the processing

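Alternatives on the cluster, on cells outside it and without or with the 174 cells of cluster 9, and those without doublets, were chosen after seeing the data. Over all cells 672 gene bodies were called higher and 488 lower, and 387 and 303 promoters. DESeq2 gave 1719 and 1228 gene bodies, and 1007 and 916 promoters. Scaling by total cut sites gave 1787 lower gene bodies and 6456 lower promoters, and shifted the median log2 change by -0.09 and -0.28. Counting cells with a cut site gave 305 lower gene bodies and 113 lower promoters. Without doublets 163 gene bodies were lower, without cluster 9 741 were, and gene bodies less the promoter window gave 376 higher and 223 lower. Cells outside the cluster gave 233 higher and 171 lower promoters. Leaving out 1 library gave 0 to 1759 higher and 0 to 1340 lower gene bodies, and 97 to 802 higher and 39 to 656 lower promoters. The causes were not tested.

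Of the 10 genes, 1 gene body was called higher by DESeq2 and without cluster 9. One promoter was higher without cluster 9, 1 lower under total scaling and 1 lower outside the cluster. In the cluster 1 gene body was lower by DESeq2 (31 lower over all genes), and total scaling gave 1 lower promoter (54 lower over all genes). Without a filter 1 gene body and 1 promoter there were called each way. Counts over all genes in the cluster without a filter are not given here, so these calls have no background beside them. Leaving out 1 library gave 0 to 1 calls each way over all cells and in the cluster, for both windows. It gave 0 to 1 in the promoter difference and 0 in the gene-body difference. For regions at the genes, total scaling gave 1 higher and DESeq2 1 lower, and leaving out 1 library 0 to 4 higher and 0 to 2 lower. In the cluster DESeq2 gave 1 lower region and no filter 2, and leaving out 1 library 0 higher and 0 to 1 lower. Shares over all regions under these alternatives are not given here, so the region counts cannot be set against a background.

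Same-numbered libraries correlated at 0.04, 0.17 and 0.19 in their deviations for promoters and -0.03, 0.28 and 0.24 for gene bodies. Differently numbered libraries ran from -0.22 to 0.09 for promoters and from -0.34 to 0.14 for gene bodies. In replicates 2 and 3 the same-numbered library was the best match for both windows. Injured replicate 1 correlated best with uninjured replicate 2 (0.09 and 0.14). Uninjured replicate 1 correlated best with injured replicate 1 for promoters and injured replicate 3 for gene bodies (0.11). Ages matched by replicate number. Whether the numbers mark a shared day or litter was not tested, and the fits without a block were kept as the main ones. With the replicate block 1141 gene bodies were higher and 1081 lower, and 720 and 912 promoters. The block called 1 of the genes higher (Prss30, gene body 0.84 and promoter 1.30) and 1 lower by gene body (Reg3g, -0.70) and by promoter (Serpina3n, -1.17). In the cluster the block called 1 gene body lower (Tff2, -0.99) and 1 promoter higher (Prss30, 0.84), and 1 region higher over all cells and 1 lower in the cluster. The block's counts over all genes in the cluster and over all regions are not given here. The block turned the sign for F2 (gene body 0.03, promoter 0.13), Dyrk4 (gene body -0.02, promoter 0.23) and, in the cluster, the promoter of Bpifa1 (0.09).

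Other changes of sign were all in values that passed no test. By gene body, total scaling gave Bpifa1 -0.04, Adgrg1 -0.02 and Dyrk4 -0.01. Leaving out cluster 9 gave Bpifa1 -0.14 and Dyrk4 -0.01, leaving out the core Bpifa1 -0.02, and leaving out doublets Dyrk4 -0.09. Cells outside the cluster gave Tff2 0.12 and Adgrg1 -0.07, and gene bodies less the promoter gave Bpifa1 -0.40 and Adgrg1 -0.05. By promoter, leaving out cluster 9 gave Depp1 0.09 and Dyrk4 0.12, cells outside the cluster Tff2 0.30, and every annotated start Adgrg1 0.17. In the cluster, promoters without doublets gave Serpina3n 0.04, Reg3g 0.06 and Bpifa1 0.09, and with cluster 9 added Serpina3n 0.08 and Bpifa1 0.42. There, gene bodies with cluster 9 added gave Bpifa1 0.06 and Dyrk4 0.04, without doublets Dyrk4 0.03 and less the promoter Dyrk4 1.09.

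Leaving out 1 library, log2 changes by gene body ran from -0.51 to 0.68 for F2, -0.78 to 0.28 for Depp1, -0.75 to 0.17 for Tff2, -0.18 to 0.34 for Bpifa1, -0.01 to 0.14 for Adgrg1 and -0.61 to 0.52 for Dyrk4. By promoter they ran from -0.78 to 1.34 for F2, -0.53 to 0.55 for Depp1, -1.22 to 0.12 for Reg3g, -0.67 to 0.34 for Tff2, -1.02 to 0.56 for Adgrg1 and -0.77 to 1.39 for Dyrk4. In the cluster gene bodies ran from -0.46 to 0.24 for F2, -0.71 to 0.07 for Bpifa1 and -0.33 to 0.32 for Dyrk4. Promoters there ran from -0.71 to 0.78 for F2, -0.54 to 0.11 for Serpina3n, -0.44 to 0.38 for Bpifa1 and -0.61 to 0.23 for Dyrk4.

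The most open cluster held 2.22% of uninjured and 2.16% of injured cells at resolution 0.5, and 18.5% and 24.6% at 0.25. At resolution 0.5, keeping regions at the genes gave 22.7% and 5.64%, and a minimum of 2000 fragments gave 12.3% and 4.71%, with a second open cluster of 419 and 609 cells beside each. The median pair correlation was 0.04 after thinning, 0.14 in uninjured replicate 3 alone and 0.17 in injured replicate 3 alone. Depth limits the gene body of Bpifa1, which held as few as 9 cut sites in a library's cells of the cluster, and the promoters of Bpifa1 (4), F2 (6) and Aspa (0 to 2, not tested).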
